A study of Rattus norvegicus with 3 samples.

Results

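The genes of oxidative phosphorylation, the mitochondrial pathway that makes most ATP from nutrients and oxygen, were followed through 3 stages of the rat enamel organ. They were chosen by symbol alone: every gene whose name begins with Ndufa, Ndufb, Ndufc, Ndufs or Ndufv, Uqcr, Atp5, or Cox followed by a digit of 4 to 8, together with Cyc1, Sdha to Sdhd and the genes of the mitochondrial genome that encode subunits. This gave 105 of the 16516 genes in the authors' deposited table. Of these, 94 encode named subunits of complexes I to V, 81 in the nucleus and 13 in mitochondrial DNA. The other members are 8 complex I assembly factors (Ndufaf1 to Ndufaf8) and 3 further symbols, Atp5if1, Atp5s and Cox7a2l2.

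Enamel is laid down by ameloblasts, an epithelium renewed from the cervical loop of the ever-growing incisor. Its cells secrete the enamel matrix, and then resorb it while moving ions during maturation. Cervical loop cells, secretory-stage ameloblasts and maturation-stage ameloblasts were dissected from enamel organs, with tissue from 5 rats of the Wistar Hannover strain, with no treatment named in the labels, and their RNA was sequenced. Neither the age nor the sex of the animals is given in the sources used here. The RNA integrity number had to reach 7, and 1 cervical loop library (rat 1) fell short of that limit and was left out, per the labels.

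Each stage is represented by 1 deposited mean per gene, so there is 1 sample per stage and no standard deviation can stand beside a value. Replicate error enters only through the authors' false discovery rate (FDR) for every gene and stage pair. A gene is said to have risen or fallen where that FDR was at most 0.05, with the direction taken from the stage means. The unit of the means is not stated in the file headers, and it is not known whether they are per transcript length, so levels are compared within a gene and not between genes. Libraries had 25000000 reads of 75 bases each, per the labels; how many were counted per gene is not stated in the labels, so no counting interval is given. Because the tissue was measured in bulk, fewer cells of a type and less RNA per cell cannot be told apart in any value here.

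In the respiratory chain, complex I (NADH dehydrogenase) and complex II (succinate dehydrogenase) pass electrons to ubiquinone, complex III passes them to cytochrome c, and complex IV (cytochrome c oxidase) passes them to oxygen. Complexes I, III and IV pump protons across the inner membrane, and complex V (ATP synthase) uses the returning protons to make ATP. Most subunits are encoded in the nucleus and imported, while a small set is encoded in mitochondrial DNA, so that every complex but complex II is built from both genomes. Maturation ameloblasts are known for many mitochondria near their ruffled border.

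The stage labels were checked against marker genes. Ambn (ameloblastin), an enamel matrix gene, had means in the authors' deposited table of 1306 in cervical loop, 61048 in secretory and 5251 in maturation cells. Odam, a maturation-stage secreted protein, had means in the authors' deposited table of 29.3, 127 and 3159 in the same order, and Mki67, a marker of dividing cells, of 289, 38.8 and 35.3. Of 12 stage markers 6, 5 and 6 rose and 2, 6 and 3 fell in secretory against cervical loop, maturation against secretory and maturation against cervical loop cells. Markers of other cells were present as well. In the authors' deposited table the summed means of 10 mesenchyme markers were 10349 in cervical loop, 10733 in secretory and 14384 in maturation cells, and those of 11 myeloid markers 269, 227 and 748. Such sums mostly follow the genes with the largest means, as Col1a1 among the mesenchyme markers, with 5618, 5218 and 6385. They do not measure the amount of a cell type. In the authors' deposited table the sums for 7 endothelial markers were 182, 247 and 361, those for 9 muscle markers 5.69, 8.98 and 137, and those for 3 erythroid markers 1280, 1132 and 1804. In maturation against cervical loop cells 9 of 11 myeloid, 6 of 7 endothelial, 4 of 10 mesenchyme, 0 of 9 muscle and 0 of 3 erythroid markers rose by the authors' FDR, and 1 mesenchyme marker and none of the others fell. No muscle or erythroid marker passed in either step, with 0 and 1 at an unadjusted p of 0.05. In maturation against secretory cells 10 of 11 myeloid, 4 of 7 endothelial and 4 of 10 mesenchyme markers rose. In secretory against cervical loop cells 3 of 7 endothelial and 1 of 10 mesenchyme markers rose and 2 mesenchyme markers fell, with 0 of 11 myeloid markers passing (0 also at an unadjusted p of 0.05). Among the muscle markers 2 were at the floor in the cervical loop. For each result given here, the part these other cells played was not tested.

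Members that passed the test were mostly higher at the later stage, both in the step from cervical loop to secretory cells (the first step) and in the step to maturation (the second step). In maturation ameloblasts against cervical loop cells, 60 of the 105 members rose, 4 fell and 41 did not pass, where 24.1% of all genes rose, 33.7% fell and 57.8% passed in either direction. In secretory ameloblasts against cervical loop cells 28 rose, 7 fell and 70 did not pass, against 16.5%, 25.2% and 41.8% of all genes. In maturation against secretory ameloblasts 40 rose, 6 fell and 59 did not pass, against 21.8%, 21.1% and 42.9%. The steps were small: the median log2 ratio over the 104 members above the floor of 0.1 was 0.14 for the first step, 0.25 for the second and 0.37 over both. The same medians over all genes were -0.14, 0.00 and -0.12. Some difference among the 3 stages was called in 71 of the 105 members, a share near the 67.2% of all genes. The 4 that fell from cervical loop to maturation were Atp5mc2 of complex V, Cox7a2l of complex IV, and the assembly factors Ndufaf5 and Ndufaf6.

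One scaling question bears on the first step. The 10 genes with the largest means, among them the enamel matrix genes, took 13.5% of the summed means in the cervical loop, 32.5% in secretory and 14.3% in maturation cells. Dividing each stage by its sum without those 10 genes moved the median of all genes to -0.27 for secretory against cervical loop and to -0.26 for maturation against cervical loop. The members' medians then became 0.01 and 0.23 on the log2 scale. Such a scaling shifts every gene by the same amount, so it leaves the distance between members and all genes as it was, while the members' own median in the first step depended on it.

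The highest of the 3 means fell in maturation for 64 of the 81 nuclear subunits, in the secretory stage for 14 and in the cervical loop for 3. Among the nuclear subunits 28 rose and 4 fell in secretory against cervical loop cells, 34 rose and 6 fell in maturation against secretory cells, and 55 rose and 2 fell in maturation against cervical loop cells. Beside them, 16.5%, 21.8% and 24.1% of all genes rose and 25.2%, 21.1% and 33.7% fell. The median log2 ratios of the nuclear subunits in these comparisons were 0.18, 0.24 and 0.41. The 9 members that rose in both steps were Ndufc2 and Ndufs1 of complex I, Cox6a1, Cox6c and Cox8a of complex IV, and Atp5f1b, Atp5f1d, Atp5h and Atp5md of complex V. They make up 8.57% of the members, and the same pattern was found in 2.86% of all genes. A further 13 members (12.4%, against 5.66% of all genes) rose in the first step and did not pass in the second, by these calls. In 27 members (25.7%, against 12.7% of all genes) the first step did not pass and the second was a rise. Atp5mc2, Ndufa11 and Ndufaf6 (2.86% of the members, against 14.9% of all genes) fell in the first step and did not pass in the second. Another 43 members (41%, against 36.5% of all genes) passed in neither step.

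**Figure D1:**
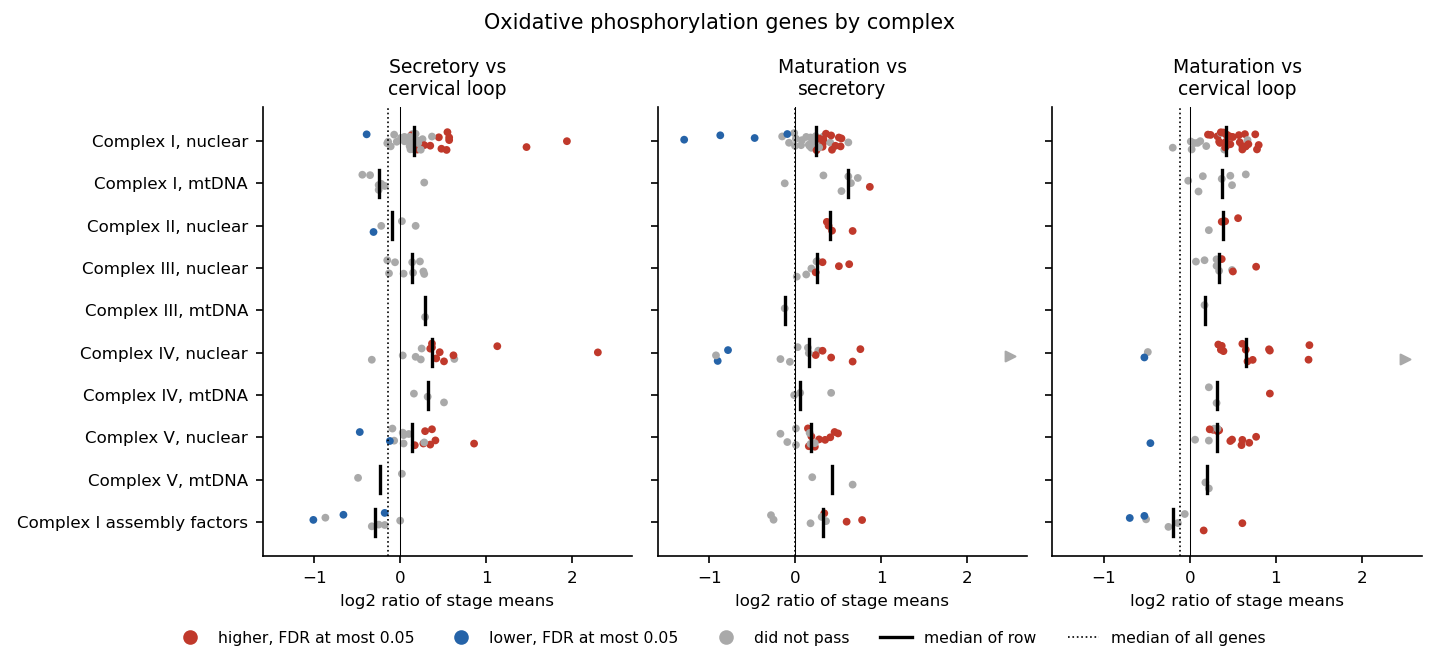
Log2 ratio of the authors' stage means for each gene (points), by complex and coding genome, in 3 pairs of stages; red points rose and blue points fell at FDR at most 0.05, grey points did not pass, black bars are row medians and the dotted line is the median of all genes. An arrowhead marks Cox6a2, which lies beyond the axis and did not pass, and Cox8b, with means at the floor, is left out; most nuclear points lie right of the dotted line in maturation against cervical loop cells.

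The plot of log2 ratios by complex sets the complexes side by side. At FDR at most 0.05, complex IV had the largest share of risen subunits in the first step, with a median log2 ratio of 0.37. Of its 16 nuclear subunits 9 were raised, among them Ndufa4, Ndufa4l2 and Cox7a2l. The last is a factor that joins complexes III and IV and is counted here with complex IV. In this complex 0 were lowered (0 also at an unadjusted p of 0.05 in the authors' test). Complex V followed with 7 of 16 raised, 2 lowered and a median of 0.13, and complex I with 12 of 36 raised, 1 lowered and a median of 0.17. At FDR at most 0.01 this order did not hold, with 4 subunits risen in complex IV, 5 in complex V and 7 in complex I in the first step. No subunit of complexes II and III rose in that step, with 0 of 4 and 1 of 9 higher at an unadjusted p of 0.05. In the second step all 4 subunits of complex II rose, as did 4 of 9 in complex III, 5 of 16 in complex IV, 9 of 16 in complex V and 12 of 36 in complex I. Over both steps 26 of 36 rose in complex I, 3 of 4 in complex II, 3 of 9 in complex III, 12 of 16 in complex IV and 11 of 16 in complex V. All nuclear subunits of complexes II and III, and all 7 nuclear core subunits of complex I, had their highest mean in maturation, as did 11 of 16 nuclear subunits in complex IV and 13 of 16 in complex V. In the first step, the second and over both, 16.5%, 21.8% and 24.1% of all genes rose and 25.2%, 21.1% and 33.7% fell. Whether the complexes differ from one another or from all genes was not tested.

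In complex I, the 7 nuclear core subunits carry the flavin and the iron-sulfur clusters that lead electrons from NADH to ubiquinone. In all, 1 of 7 rose in secretory against cervical loop cells, 5 of 7 in maturation against secretory cells and 6 of 7 in maturation against cervical loop cells, and none fell (1 was lower in the first step at an unadjusted p of 0.05). The shares of all genes were 16.5%, 21.8% and 24.1% risen and 25.2%, 21.1% and 33.7% fallen. Ndufs1, the largest iron-sulfur subunit, had means in the authors' deposited table of 36.5 in cervical loop, 44.4 in secretory and 56.8 in maturation cells, the one core subunit to rise in both steps (FDR = 0.0036 and FDR = 0.00107). Ndufv1, which binds NADH and the flavin, had means in the authors' deposited table of 30, 32.3 and 46.6 (FDR = 0.406 for the first step and FDR = 0.00481 for the second). Its partner Ndufv2 had means in the authors' deposited table of 30.3, 35.1 and 48.6 (FDR = 0.209 and FDR = 0.0278). In both genes the maturation mean was the highest, and the first step did not pass.

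Ndufs7, which carries the last iron-sulfur cluster before ubiquinone, had means in the authors' deposited table of 11.5, 12.9 and 17.5 (FDR = 0.0276 for maturation against secretory). Ndufs3 had means in the authors' deposited table of 13.6, 14.7 and 16.1 and passed in maturation against cervical loop cells (FDR = 0.00828) but in neither step. The exception was Ndufs8, another iron-sulfur subunit, with means in the authors' deposited table of 21.2, 19.1 and 21.4, with FDR = 0.868 for maturation against cervical loop.

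The 29 accessory subunits surround the core and do not carry electrons. Of these, 11 rose and 1 fell in the first step, 7 rose and 4 fell in the second, and 20 rose and 0 fell from cervical loop to maturation (1 was lower at an unadjusted p of 0.05). Among all genes 16.5%, 21.8% and 24.1% rose and 25.2%, 21.1% and 33.7% fell. The largest gains by maturation were those of Ndufc1, with means in the authors' deposited table of 4.44, 6.46 and 7.71 in cervical loop, secretory and maturation cells (1.74-fold, FDR = 0.00193), and of Ndufb6, with means in the authors' deposited table of 13.9, 18 and 23.9 (1.71-fold, FDR = 0.0119). Ndufb9 rose in the second step, with means in the authors' deposited table of 15.6, 18.2 and 26.4 (1.45-fold, FDR = 0.00299). Ndufa11 was the subunit of complex I that fell in the first step, in the authors' deposited table to 16.8 in secretory cells, against 22.1 in cervical loop cells (1.31-fold lower, FDR = 0.0112). Ndufs4 rose in the second step, with means in the authors' deposited table of 25.4, 24.2 and 34.5 (1.42-fold, FDR = 0.00246). Ndufb2 and Ndufv3 rose in the first step, with means in the authors' deposited table of 12.3, 18.2 and 18.3 for Ndufb2 and 17.7, 24.6 and 23.5 for Ndufv3 (FDR = 0.00768 and FDR = 0.00653). In these the maturation mean lay close to the secretory one. Nearly level over the stages was Ndufab1, the acyl carrier protein of mitochondria, with means of 10.8, 10.9 and 10.9 in the authors' deposited table.

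Ndufa1, a small accessory subunit of the membrane arm that complex I needs for assembly, had the largest ratio of any complex I member in both steps. It had been named beforehand as a known exception to look at, so its course was not found afresh here. Its mean was 14.3 in cervical loop, 55.1 in secretory and 22.5 in maturation cells in the authors' deposited table. The secretory mean was the high one, and the maturation mean stayed above that of the cervical loop. The authors' deposited table gives a 3.85-fold rise in secretory against cervical loop cells (FDR = 0.000424), a 2.45-fold lower level in maturation against secretory cells (FDR = 0.00056) and a 1.57-fold higher level in maturation against cervical loop cells (FDR = 0.002). Both transcripts listed for the gene rose and then fell. In the authors' deposited table of isoforms the transcript with the larger mean stood at 38.3 in secretory cells, against 8.92 in cervical loop cells (4.29-fold higher, FDR = 0.000706), and the other transcript at 16.5 in secretory cells, against 5.4 in cervical loop cells (3.05-fold higher, FDR = 0.00127). In maturation against secretory cells the authors' deposited table of isoforms gives the first 14.8 in maturation cells, against 38.5 in secretory cells (2.6-fold lower, FDR = 0.00212), and the other 7.89 in maturation cells, against 16.7 in secretory cells (2.12-fold lower, FDR = 0.0101). No change in the make-up of the transcripts was called for Ndufa1 by the authors' test (FDR = 0.871 for secretory against cervical loop cells).

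Ndufa1 was not alone. Of all members, 6 rose in the secretory stage and fell again in maturation: Ndufa1, Ndufa3, Ndufa13 and Ndufb11 of complex I, and Ndufa4 and Cox7a2l of complex IV. That is 5.71% of the members, against 7.99% of all genes with such a peak, so the number of peaks is not a result about the members. Ndufa3, an accessory subunit of the membrane arm, had means in the authors' deposited table of 7.52, 20.9 and 11.4, 2.78-fold higher in secretory than in cervical loop cells (FDR = 0.00498) and 1.82-fold lower in maturation than in secretory cells (FDR = 0.0305). Ndufa4, first described in complex I and now placed in complex IV, had means in the authors' deposited table of 51.4, 113 and 65.9 (2.19-fold higher, FDR = 0.00104, then 1.71-fold lower, FDR = 0.00275). In these the maturation mean lay between the others, as it did for Ndufa1.

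Ndufa13, also known as Grim19, had means in the authors' deposited table of 17.1, 25.3 and 18.2 (FDR = 0.00405 and FDR = 0.00507), and its maturation mean did not differ by the test from that of the cervical loop (FDR = 0.398). Ndufb11 had means in the authors' deposited table of 27.5, 37.5 and 35.2, a rise of 1.37-fold (FDR = 0.000424) followed by a step of 1.06-fold downward (FDR = 0.0353), so its peak was slight. Cox7a2l, a factor that joins complexes III and IV into supercomplexes, had means in the authors' deposited table of 75.9, 98 and 52.6. It was the nuclear subunit of complex IV called lower over both steps, 1.44-fold lower in maturation than in cervical loop cells (FDR = 0.00629).

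The opposite course, a fall in the secretory stage and a rise in maturation, was called in 4 members: Sdhb, Atp5po, Ndufaf1 and Ndufaf4. They are 3.81% of the members, against 6.2% of all genes. Sdhb, the iron-sulfur subunit of complex II, had means in the authors' deposited table of 33.4, 27 and 43 (1.24-fold lower in secretory cells, FDR = 0.0024, then 1.6-fold higher in maturation, FDR = 0.000203). Atp5po, the stalk subunit that confers sensitivity to oligomycin, had means in the authors' deposited table of 61.2, 56.2 and 71.6 (FDR = 0.0404 and FDR = 0.000861). Its fall was smaller than the shift of the median gene: with the median of all genes subtracted, its log2 ratio for secretory against cervical loop was 0.02. The plot of peaks and dips shows both groups on the scale of the cervical loop mean.

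**Figure D2:**
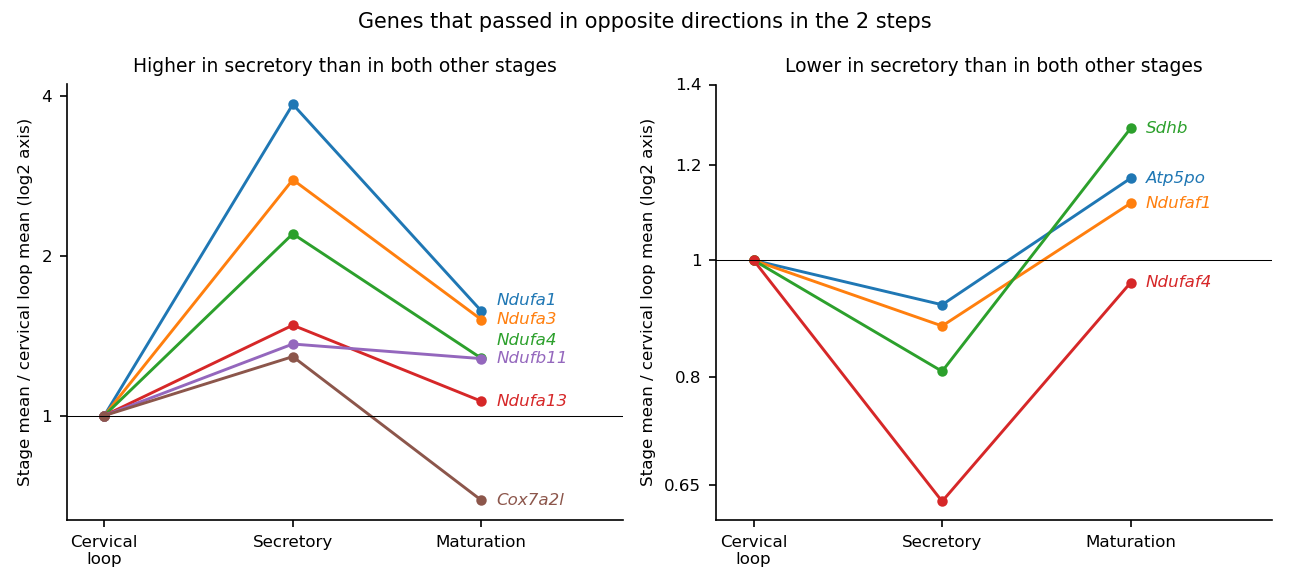
Authors' stage mean divided by the cervical loop mean of the same gene (log2 axis) in cervical loop, secretory and maturation cells, for the 6 members that rose and then fell (left) and the 4 that fell and then rose (right). Ndufa1 reaches 3.85 times its cervical loop mean in the secretory stage, and Sdhb reaches 0.807 times; no error bars are drawn because 1 mean per stage was used.

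The promoters of Ndufa1 and Sdhb are shown because these genes moved in opposite directions at the secretory stage. Each window runs from 250 bases before to 50 bases after the transcription start in RefSeq on build GRCr8, at chrX:121293506-121293805 on the minus strand for Ndufa1 and at chr5:158547684-158547983 on the plus strand for Sdhb. Capitals mark matches to CCGGAAG, the core of sites bound by ETS factors such as the GABP (NRF2) regulator of respiratory genes, searched on both strands. Ndufa1 holds 2 matches, 171 bases before and 6 bases after the start, and Sdhb holds 1, 108 bases before the start. The earlier Ndufa1 match is read on the opposite strand, and no match shown overlaps another.
Ndufa1: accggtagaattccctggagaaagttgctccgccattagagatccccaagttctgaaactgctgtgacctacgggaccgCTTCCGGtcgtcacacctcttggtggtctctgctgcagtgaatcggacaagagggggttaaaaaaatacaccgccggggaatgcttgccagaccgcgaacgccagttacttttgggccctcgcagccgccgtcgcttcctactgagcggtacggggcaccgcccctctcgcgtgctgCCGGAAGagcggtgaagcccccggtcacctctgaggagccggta
Sdhb: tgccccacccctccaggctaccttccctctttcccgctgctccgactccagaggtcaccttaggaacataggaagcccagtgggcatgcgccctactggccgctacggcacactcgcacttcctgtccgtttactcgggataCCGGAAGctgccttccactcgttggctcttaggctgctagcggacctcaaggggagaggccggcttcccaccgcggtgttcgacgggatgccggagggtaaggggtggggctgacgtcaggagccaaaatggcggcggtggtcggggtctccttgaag

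The same windows were searched over all members for 4 motifs: CCGGAAG, the NRF1 site (GCGCA, any base, then GCGC), the YY1 site AAGATGGCG and the ERR alpha site TCAAGGTCA. Of the 105 members 92 matched the RefSeq table, 87 by symbol and the rest by a synonym, and 80 had a promoter sequence. CCGGAAG was found in 22 of these 80 (27.5%), against 16% of the 11447 promoters of all genes. The NRF1 site was found in 16 (20%), against 9.08%, the YY1 site in 11 (13.8%), against 3.35%, and the ERR alpha site in 2 (2.5%), against 0.253%. At least 1 of the motifs stood in 42 of the 80 (52.5%), against 25.4% of all genes. Among the 6 members with a secretory peak, CCGGAAG stood in 2 and the other motifs in 0, and Ndufa4 held none of them. The NRF1 site stood in 7 of the 23 promoters of members that rose in the second step only, in 2 of the 12 of those that rose in the first only, and in 0 of the 6 of those that rose in both. It also stood in 2 of the 4 with a secretory dip and in 2 of the 2 that fell in the first step only. Of the 27 that passed in neither step it stood in 3. Whether these shares differ was not tested. Matches describe the letters of these windows and were not tested as binding sites.

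Complex II has 4 nuclear subunits and none from mitochondrial DNA. All 4 rose in maturation against secretory cells and 3 rose against cervical loop cells, where 21.8% and 24.1% of all genes rose. Sdha, the flavoprotein that oxidises succinate, had means in the authors' deposited table of 52, 52.9 and 69.2, with FDR = 0.754 for the first step and a 1.31-fold rise in the second (FDR = 0.0023). The membrane anchors Sdhc and Sdhd had means in the authors' deposited table of 37.1, 42.1 and 54.5 for Sdhc and 41.1, 35.3 and 47.8 for Sdhd (FDR = 0.0202 and FDR = 0.0111 for maturation against secretory). In secretory against cervical loop cells Sdhb was the subunit that passed, downward, and Sdhd had a lower mean without passing (FDR = 0.0971).

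In complex III 0, 4 and 3 of 9 nuclear subunits rose in the first step, in the second and over both, and 0 fell in each (0 also at an unadjusted p of 0.05). For all genes the shares were 16.5%, 21.8% and 24.1% risen and 25.2%, 21.1% and 33.7% fallen. Uqcrc1, a core protein, had means in the authors' deposited table of 41.7, 38.1 and 59, 1.55-fold above the secretory stage in maturation (FDR = 0.00102). Uqcrb, which lies near the ubiquinone site, had means in the authors' deposited table of 27.9, 33.6 and 47.7 (1.42-fold, FDR = 0.00687), and Uqcrh, the hinge protein that docks cytochrome c, of 48.9, 53.8 and 63.4 (FDR = 0.0242). The subunits that carry electrons did not pass in any comparison. Cyc1 (cytochrome c1) had means in the authors' deposited table of 25.8, 28.6 and 32.8, and the Rieske iron-sulfur protein Uqcrfs1 of 33.3, 34.3 and 41.1 (FDR = 0.107 and FDR = 0.0518 for maturation against cervical loop). Uqcrc2, the other core protein, had means in the authors' deposited table of 71.7, 68.7 and 75.4 and did not pass either.

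Complex IV had the largest median of the nuclear complexes by maturation: 12 of 16 nuclear subunits rose and 1 fell from cervical loop to maturation, with a median log2 ratio of 0.65 over 15 genes above the floor. In that comparison 24.1% of all genes rose and 33.7% fell. Cox8a had means in the authors' deposited table of 47, 67.1 and 89.8 (1.91-fold higher in maturation than in cervical loop, FDR = 0.00123). Cox5b, a zinc-binding subunit, had means in the authors' deposited table of 14.9, 17.7 and 28.1 (1.89-fold, FDR = 0.00248), with the gain in the second step. Cox7b and Cox7c, small subunits of the outer shell, rose in the first step, with means in the authors' deposited table of 28.2, 43.2 and 44.1 for Cox7b and 37.7, 50.6 and 48.6 for Cox7c (FDR = 0.00129 and FDR = 0.00243 for secretory against cervical loop). Cox6c rose in both steps, with means in the authors' deposited table of 31.6, 40.3 and 50.2 (FDR = 0.025 and FDR = 0.0305), and Cox5a, which touches the catalytic core from the matrix side, in the first, with 11.6, 15.9 and 19.2 (FDR = 0.0457).

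Several complex IV subunits come from paired genes, a common form and one used in particular tissues or conditions. The common forms rose by maturation. Cox4i1 had means in the authors' deposited table of 60.6, 71.4 and 79.3 (FDR = 0.006 for maturation against cervical loop), Cox6a1 of 29.4, 38.1 and 45 (FDR = 0.000858) and Cox6b1 of 37.7, 42.6 and 47.5 (FDR = 0.0147). Cox6b2, known as the testis form of Cox6b, had means in the authors' deposited table of 6.14, 9.48 and 16 and was 2.61-fold higher in maturation than in cervical loop cells (FDR = 0.00169). Ndufa4l2, the relative of Ndufa4 known to be induced by low oxygen, had means in the authors' deposited table of 3.66, 18.1 and 9.56. It rose 4.93-fold in secretory against cervical loop cells (FDR = 0.00312) and was 1.89-fold lower in maturation than in secretory cells without passing (FDR = 0.0678). RefSeq places it across the gene Shmt2, and how reads of such overlaps were shared is not given in the sources used here. Cox4i2, the other form known from lung and low oxygen, did not pass, with means in the authors' deposited table of 5.81, 4.64 and 4.13.

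The heart and skeletal muscle forms Cox6a2 and Cox8b were near the floor outside maturation. Cox6a2 had means in the authors' deposited table of 0.125, 0.128 and 1.77, and Cox8b of 0.0927, 0.0831 and 1.61, and neither passed in maturation against secretory cells (FDR = 0.446 and FDR = 0.533). The muscle markers were in the same position: 0 of 9 passed in any comparison (0 also at an unadjusted p of 0.05), with the summed mean of 137 in maturation cells given above. Myh4, a fast muscle myosin and the muscle marker with the largest maturation mean, had means in the authors' deposited table of 0.24, 1.96 and 52.8 (FDR = 0.491 for maturation against secretory).

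**Figure D3:**
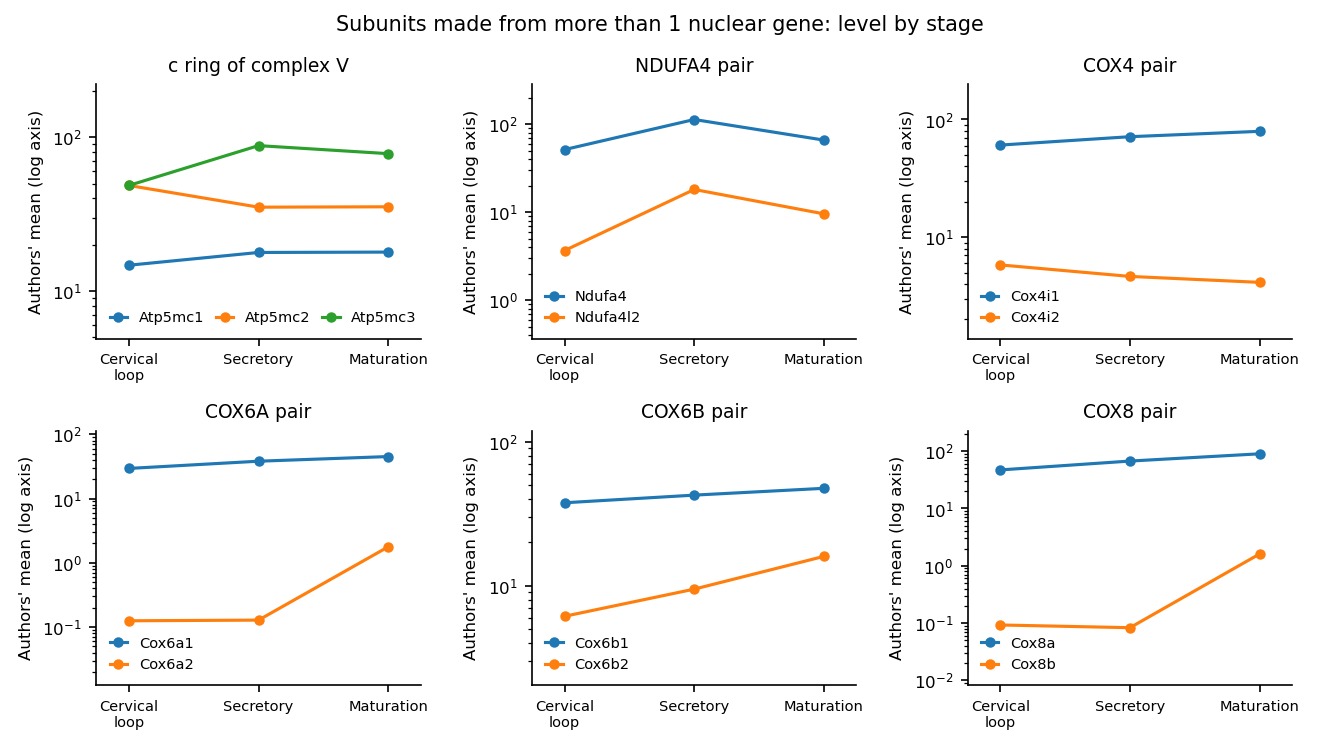
Authors' stage means (log axis) in cervical loop, secretory and maturation cells for subunits made from more than 1 nuclear gene, 1 panel per subunit; each point is 1 deposited mean, with no error bars. Atp5mc2 and Atp5mc3 start together at 48.6 and part in the secretory stage, Ndufa4 and Ndufa4l2 have their highest mean there, and Cox6a2 and Cox8b stand near the floor before maturation.

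In complex V, 3 of the 5 subunits of the catalytic head rose in the first step and 4 in the second, and none fell (0 also at an unadjusted p of 0.05). In these steps 16.5% and 21.8% of all genes rose and 25.2% and 21.1% fell. Atp5f1b, the catalytic beta subunit, had means in the authors' deposited table of 339, 381 and 425 (FDR = 0.00947 and FDR = 0.00807 for the steps), and Atp5f1a, the alpha subunit, of 235, 224 and 299 (FDR = 0.146 and FDR = 0.000327). Atp5f1d, the delta subunit of the central stalk, had means in the authors' deposited table of 42.4, 51.1 and 72.1, 1.7-fold higher in maturation than in cervical loop cells (FDR = 0.00061). Atp5c1, the gamma subunit that turns inside the head, had means in the authors' deposited table of 51.3, 48.3 and 53.5, 1.11-fold higher in the second step (FDR = 0.0241). Of the outer stalk and membrane subunits, Atp5h had means in the authors' deposited table of 32.9, 43.7 and 50 (FDR = 0.00122 for the first step) and Atp5i of 20.7, 21.1 and 29.1 (FDR = 0.0275 for the second). Atp5if1, the inhibitor that blocks ATP hydrolysis by the head, had means in the authors' deposited table of 17, 18.6 and 27.3 (1.46-fold above the secretory stage in maturation, FDR = 0.0174). Atp5mg, Atp5md and Atp5pb, further membrane and stalk subunits, had means in the authors' deposited table of 68.9, 84.1 and 95.4, of 20.1, 25.9 and 30.4, and of 34.4, 35.3 and 43. Each was higher in maturation than in the cervical loop (FDR = 0.00272, FDR = 0.000151 and FDR = 0.000295), Atp5pb with its rise in the second step (FDR = 0.000776).

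The c ring, the rotor that protons turn in the membrane, is built from 1 protein that 3 genes encode with different import signals. Atp5mc2 and Atp5mc3 passed in opposite directions in the first step. In the authors' deposited table Atp5mc2 fell to 35.1 in secretory cells, against 48.6 in cervical loop cells (1.38-fold lower, FDR = 0.0107), and Atp5mc3 rose to 88.3 in secretory cells, against 48.6 in cervical loop cells (1.82-fold higher, FDR = 0.00196). In maturation the authors' deposited table puts Atp5mc2 at 35.3 and Atp5mc3 at 78.3, neither different by the test from the secretory stage (FDR = 0.88 and FDR = 0.16). Against the cervical loop, Atp5mc2 was still lower in maturation (FDR = 0.00631) and Atp5mc3 still higher (FDR = 0.00219). Both transcripts listed for Atp5mc2 had lower means in secretory than in cervical loop cells. Neither passed there in the authors' deposited table of isoforms (FDR = 0.157 and FDR = 0.232), nor in maturation against cervical loop cells (FDR = 0.19 and FDR = 0.655). Atp5mc1 had means in the authors' deposited table of 14.7, 17.8 and 17.9 and did not pass. The difference between the courses of Atp5mc2 and Atp5mc3 was not tested. RefSeq lists 4 named pseudogenes of Atp5mc2 and 0 of Atp5mc3, so the values of Atp5mc2 are less certain.

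The promoters of these genes are shown because they feed the same protein and moved apart. On build GRCr8 they lie at chr7:135678169-135678468 for Atp5mc2 and chr3:79220615-79220914 for Atp5mc3, both on the minus strand, printed in the direction of the gene. Capitals mark the NRF1 site, 56 bases before the start in Atp5mc2, where it reads the same on both strands, and 7 bases after it in Atp5mc3, where it is read on the opposite strand. They also mark the ERR alpha site, on the opposite strand 57 bases before the start of Atp5mc3. No match overlaps another.
Atp5mc2: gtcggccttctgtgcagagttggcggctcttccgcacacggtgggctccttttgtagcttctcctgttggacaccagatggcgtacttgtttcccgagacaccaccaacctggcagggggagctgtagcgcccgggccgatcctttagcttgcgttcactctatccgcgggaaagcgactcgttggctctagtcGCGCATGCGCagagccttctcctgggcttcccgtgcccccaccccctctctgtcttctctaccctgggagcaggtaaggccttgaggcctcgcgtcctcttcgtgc
Atp5mc3: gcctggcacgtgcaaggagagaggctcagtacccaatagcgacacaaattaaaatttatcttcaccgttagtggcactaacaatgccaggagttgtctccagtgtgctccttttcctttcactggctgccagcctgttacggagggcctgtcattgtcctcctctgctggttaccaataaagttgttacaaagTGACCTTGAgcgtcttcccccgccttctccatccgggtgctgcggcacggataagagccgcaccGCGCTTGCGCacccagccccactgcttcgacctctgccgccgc

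Few subunits encoded in mitochondrial DNA passed the test, and whether they differ from the nuclear ones was not tested. None of the 13 passed in secretory against cervical loop cells (1 was higher and 0 lower at an unadjusted p of 0.05), 1 rose in maturation against secretory cells and 1 in maturation against cervical loop cells. In these comparisons 41.8%, 42.9% and 57.8% of all genes passed in either direction, and 16.5%, 21.8% and 24.1% rose. The median log2 ratios of the 13 were -0.18, 0.42 and 0.22, beside 0.18, 0.24 and 0.41 for the nuclear subunits. A gene that did not pass is thus not shown to be level. The gene that rose by maturation was Mt-co1, the catalytic subunit of complex IV, with means in the authors' deposited table of 3227, 4599 and 6162 (1.91-fold, FDR = 0.00371). Mt-nd2, a proton-pumping subunit of complex I, rose in the second step, with means in the authors' deposited table of 195, 167 and 305 (1.82-fold above the secretory stage in maturation, FDR = 0.0179).

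**Figure D4:**
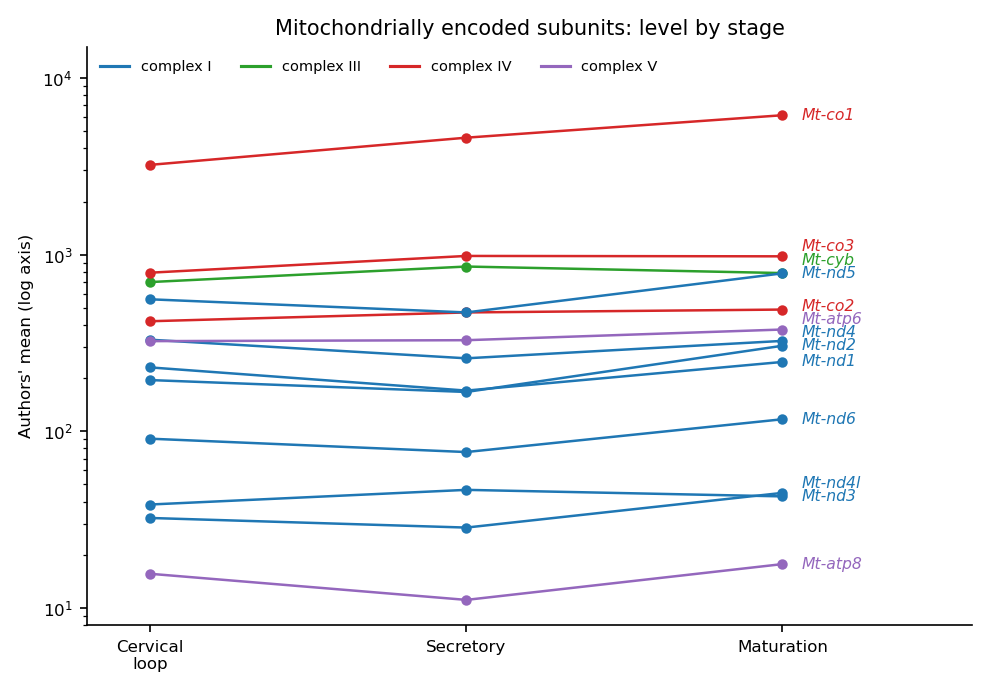
Authors' stage means (log axis) of the 13 subunits encoded in mitochondrial DNA in cervical loop, secretory and maturation cells, coloured by complex; each point is 1 deposited mean, with no error bars. Mt-co1 stands at 3227, 4599 and 6162, and 9 of the 13 genes have their highest mean in maturation.

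The plot of mitochondrially encoded genes shows which means lay lower and which higher in the secretory stage. Mt-nd1, Mt-nd2, Mt-nd4, Mt-nd4l, Mt-nd5 and Mt-nd6 of complex I had a lower mean in secretory than in cervical loop cells, as in the authors' deposited table for Mt-nd5, with 559, 471 and 784, and Mt-nd4, with 330, 259 and 325. Mt-nd1 had means in the authors' deposited table of 230, 170 and 247, Mt-nd4l of 32.3, 28.5 and 44.8, and Mt-nd6 of 90.8, 76.3 and 117. Mt-nd3 had its highest mean in the secretory stage, with means in the authors' deposited table of 38.5, 46.6 and 42.8. The genes of complexes III and IV had a higher secretory mean: Mt-cyb had means in the authors' deposited table of 700, 857 and 787, Mt-co2 of 420, 471 and 489, and Mt-co3 of 791, 984 and 979. In complex V, Mt-atp6 had means in the authors' deposited table of 324, 328 and 377 and Mt-atp8 of 15.6, 11.1 and 17.7. None of these genes passed in secretory against cervical loop cells.

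Of the 8 complex I assembly factors, which build the enzyme without being part of it, none rose and 3 fell in secretory against cervical loop cells (0 higher and 3 lower at an unadjusted p of 0.05 too), and all had a secretory mean no higher than that of the cervical loop. The 3 that fell are 37.5% of these factors, where 25.2% of all genes fell and 16.5% rose. Whether the factors differ from all genes was not tested. By the authors' deposited table Ndufaf6 fell to 1.56 in secretory cells, against 3.14 in cervical loop cells (2.01-fold lower, FDR = 0.0126). Ndufaf4 had means in the authors' deposited table of 11.9, 7.5 and 11.4 (1.58-fold lower, FDR = 0.0131, then 1.52-fold higher, FDR = 0.0127), and Ndufaf1 of 7.02, 6.19 and 7.83 (FDR = 0.00829 and FDR = 0.000677). In maturation against secretory cells 3 rose (37.5%, against 21.8% of all genes), of which the authors' deposited table puts Ndufaf8 up by 1.72-fold (FDR = 0.0278). Against the cervical loop 2 rose and 2 fell by maturation (25% each, where 24.1% of all genes rose and 33.7% fell).

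Other mitochondrial genes were set beside the members from lists chosen by function. Of 24 genes of the citric acid cycle and pyruvate dehydrogenase, 6 rose and 4 fell in secretory against cervical loop cells, 14 rose and 0 fell (0 also at an unadjusted p of 0.05) in maturation against secretory cells, and 14 rose and 4 fell in maturation against cervical loop cells. Of all genes, 16.5%, 21.8% and 24.1% rose and 25.2%, 21.1% and 33.7% fell in these comparisons. Dlst, of the 2-oxoglutarate dehydrogenase complex, had means in the authors' deposited table of 51.1, 114 and 147, and Cs, citrate synthase, of 67.8, 84.3 and 96.4 (FDR = 8.06e-05 and FDR = 5.20e-05 for maturation against cervical loop). Pdhb, of pyruvate dehydrogenase, had means in the authors' deposited table of 23.7, 25.5 and 47, 1.84-fold above the secretory stage in maturation (FDR = 0.00039). Of 14 genes of fatty acid oxidation, 2, 5 and 9 rose and 1, 0 and 1 fell in the same comparisons (0 lower also at an unadjusted p of 0.05 in the second). Hadh, a dehydrogenase of that pathway, had means in the authors' deposited table of 19.3, 18.5 and 57.6, 3.12-fold above the secretory stage in maturation (FDR = 0.00015).

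Of 14 carriers, porins and cytochrome c, 5, 7 and 9 rose and 2, 1 and 2 fell in secretory against cervical loop, maturation against secretory and maturation against cervical loop cells. Slc25a3, which brings phosphate to ATP synthase, had means in the authors' deposited table of 118, 170 and 157, and Slc25a5, an ADP/ATP exchanger, of 105, 148 and 216 (FDR = 0.000897 and FDR = 0.0297 for the first step). Slc25a4, the exchanger prominent in muscle, had means in the authors' deposited table of 108, 96.1 and 87.3 and fell by maturation (1.23-fold lower, FDR = 0.0436). Cycs, cytochrome c itself, had means in the authors' deposited table of 25.5, 33.1 and 48.8 (1.91-fold higher in maturation than in cervical loop, FDR = 0.00648). Of 42 further assembly factors, 5, 13 and 9 rose and 7, 3 and 5 fell in those comparisons. The shares of all genes there were 16.5%, 21.8% and 24.1% risen and 25.2%, 21.1% and 33.7% fallen. Atpaf1, which helps assemble the ATP synthase head, peaked with Ndufa1 in the secretory stage, with means in the authors' deposited table of 11.8, 18 and 9.99 (FDR = 0.0034 and FDR = 0.000775), and Cox10, needed to make heme A for complex IV, dipped, at 7.81, 5.46 and 9.64 (FDR = 0.00186 and FDR = 0.000364).

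Genes of the machinery that makes and imports mitochondrial proteins are given beside the shares of all genes. Of all genes 25.2% fell in the first step, 21.1% in the second and 33.7% over both, and 16.5%, 21.8% and 24.1% rose. Whether these lists differ from the subunits or from all genes was not tested. Of 73 mitochondrial ribosomal proteins 3 rose and 31 fell in secretory against cervical loop cells, 18 rose and 3 fell in maturation against secretory cells, and 6 rose and 18 fell in maturation against cervical loop cells, with median log2 ratios of -0.23, 0.08 and -0.11. The medians of all genes were -0.14, 0.00 and -0.12. Of 23 genes of the import translocases 1, 2 and 3 rose and 6, 2 and 8 fell in the same comparisons. Of 16 genes that copy and transcribe mitochondrial DNA 0 rose and 7 fell in the first step (0 higher and 9 lower at an unadjusted p of 0.05), 1 rose and 0 fell in the second, and 1 rose and 8 fell from cervical loop to maturation. Tfam, which packages mitochondrial DNA and starts its transcription, had means in the authors' deposited table of 17.4, 9.97 and 9.55 (1.75-fold lower in secretory than in cervical loop cells, FDR = 0.00221). The plot of shares by list sets these counts side by side.

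**Figure D5:**
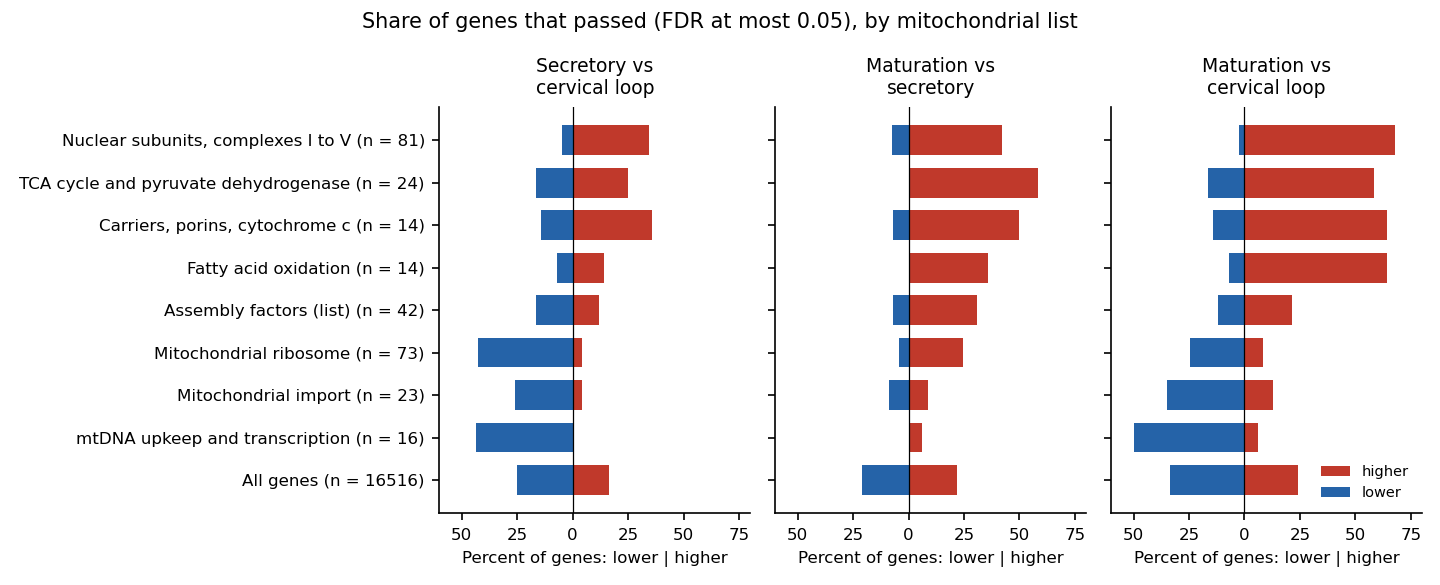
Percent of the genes in each list that rose (red, to the right) and fell (blue, to the left) at FDR at most 0.05 in 3 pairs of stages, with the number of genes in each list and all genes in the bottom row. Nuclear subunits rose at 34.6%, 42% and 67.9%; mitochondrial ribosome, import and mitochondrial DNA genes have longer bars to the left than to the right in both comparisons with the cervical loop, as do all genes.

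Of 14 known regulators of respiratory genes, 4, 3 and 5 rose and 4, 2 and 6 fell in the same order of comparisons. Beside them, 16.5%, 21.8% and 24.1% of all genes rose and 25.2%, 21.1% and 33.7% fell. Ppargc1a, a coactivator that drives mitochondrial biogenesis in many tissues, had means in the authors' deposited table of 7.68, 15.2 and 15.4 (1.98-fold higher in secretory than in cervical loop cells, FDR = 0.00213). Esrra, which encodes ERR alpha, had means in the authors' deposited table of 7.94, 10.7 and 16.3 (2.05-fold higher in maturation than in cervical loop, FDR = 0.00377). By contrast Esrrg, of the same list, fell in the first step, with means in the authors' deposited table of 1.55, 0.136 and 0.161 (11.4-fold lower, FDR = 0.0145). Its later means lay near the floor. Myc fell and then rose, with means in the authors' deposited table of 13, 3.23 and 8.07 (FDR = 0.00121 and FDR = 0.00356). Nrf1, whose site was searched above, fell in each step and had means in the authors' deposited table of 23, 18 and 15.5 (FDR = 0.00096 for maturation against cervical loop). Of the GABP subunits, Gabpb1 had means in the authors' deposited table of 12.6, 8.31 and 8.21, and Gabpa, which binds the DNA, of 27.3, 25.1 and 23.1 (FDR = 0.0139 and FDR = 0.0273 for maturation against cervical loop, both lower). Pprc1, a relative of Ppargc1a, peaked in the secretory stage with means in the authors' deposited table of 27.9, 33.6 and 16.2, and Hif1a, the low-oxygen factor, rose in both steps with 97, 134 and 283 (FDR = 9.15e-05 and FDR = 0.000242 for maturation against secretory).

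The isoform tables held 9 member genes with 23 transcripts. A change in the make-up of transcripts was called in 0 of 9 in each pair of stages, with 0, 1 and 2 at an unadjusted p of 0.05, where 1.19%, 1.8% and 2.79% of all genes listed were called. The members with such a p were Ndufv3 in maturation against secretory cells (p = 0.0249, FDR = 0.326), and Ndufv3 and Atp5c1 in maturation against cervical loop cells (FDR = 0.261 and FDR = 0.248), in the authors' deposited table of isoforms. RefSeq lists a named pseudogene for 45 of the members, and 31 overlap another annotated gene. Of those described above, Ndufa1 has 1 named pseudogene, Ndufa3 and Ndufa4 have 2 each and Ndufa13 has 4, so their values are uncertain where reads could be shared with copies. Cox7a2l overlaps an uncharacterised gene, while Ndufb11, Sdhb and Atp5mc3 have 0 named pseudogenes and 0 overlapping genes.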

How the data were processed

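RNA from 3 cell populations of rat enamel organs was sequenced, and the deposited tables hold the authors' results rather than values per library. Reads were aligned to rn6 with STAR 2.5.3a and analysed in Partek, per the submitters' processing notes. The deposited gene table gives 1 least-squares mean per stage (a score whose unit is not stated), p-values and step-up FDR values of the authors, and ratios of the means for each pair of stages. The deposited FDR equalled Benjamini-Hochberg adjustment over all 16516 genes within 4.92e-16. No test of replicates was possible with 1 sample per stage, so the authors' FDR at most 0.05 is used throughout, with direction from the deposited means. Log2 ratios and medians were computed from these means, leaving out genes with a mean of at most 0.1 in either stage. Where the authors tested on another scale, a small ratio and its FDR may not correspond.

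The members and all lists were chosen with earlier results of these data known. Named members are Ndufa1, the 2 subunits with the largest called ratio in each direction for each complex and pair, paired isoform genes, core subunits, mitochondrially encoded subunits, and members called in opposite directions. Of other lists the 2 genes with the smallest p in each direction were eligible. Other members given with values, and Cycs, Slc25a4, Slc25a5, Esrra, Esrrg, Myh4 and the GABP subunits, were chosen after their values were seen. Cox7a1, Cox7a2, Cox7b2 and Cox8c were not analysed here. Members not named enter through counts and medians, and some results are not reported here. The labels name a left-out library by its rat, which points to 1 library per rat and stage, but the number of libraries behind each mean is not stated in them. Sequences are from RefSeq (GRCr8), a later build than that of the files, so no coordinate of the files was used. Python 3.11.15, pandas 2.3.3, numpy 2.4.6 and matplotlib 3.10.9 were used, and the counting was tested on simulated data. Alternatives were a stricter FDR, an added fold limit of 1.5, a pseudocount of 1, other scalings, a minimum mean of 1, named subunits alone and the means of the other deposited lists.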

Additional observations from a re-analysis of the deposited data

How the results depend on the processing

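The counts by complex in this paragraph take in the mitochondrially encoded subunits. With FDR at most 0.01, 16 members rose and 2 fell in secretory against cervical loop cells, 16 rose in maturation against secretory cells, and 2 fell in maturation against cervical loop cells. In complex I, 7 and 5 then rose in the first and second step and 0 and 2 fell; in complexes II and III, 2 and 2 rose in the second step; in complex IV, 4 and 0 rose in the first and second step; and in complex V, 0 fell in the first. With a fold limit of 1.5 added to the FDR limit of 0.05, 6, 8 and 26 members rose in secretory against cervical loop, maturation against secretory and maturation against cervical loop cells, and 2 and 1 fell in both comparisons with the cervical loop. Complex I then had 2, 1 and 9 higher, with 0 and 2 lower in the first and second step. Complex II had 0 lower in the first step, 1 higher in the second and 0 higher by maturation. Complex III had 1 higher in the second step and 1 by maturation. Complex IV had 3 and 2 higher in the first and second step and 0 lower by maturation. Complex V had 1, 0 and 4 higher in the 3 comparisons, and 0 lower in both comparisons with the cervical loop. Among named subunits alone, 4 fell in the first step and 2 by maturation. These follow from fewer genes passing or being counted. Scaling by the sum without the 10 largest genes gave 2 complex I subunits lower in the first step and member medians of 0.01 in the first step and 0.23 by maturation; subtracting the median of all genes gave 0.28 and 0.49. Ndufb5 turned to -0.00 under the sum scaling and Atp5po to 0.02 under the subtraction, both in secretory against cervical loop cells. Summary counts not listed here changed by at most 1.5-fold under the alternatives, and medians not listed by less than 0.1 on the log2 scale. No paired analysis was possible because each stage has 1 deposited mean, and for the same reason no replicate could be left out.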
